A study of Saccharomyces cerevisiae with 24 samples.

Results

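The genes examined encode the budding yeast cyclin-dependent kinase Cdc28, the kinase Cak1 that activates it, 6 of its cyclins (CLN1, CLN2, CLB5, CLB6, CLB1 and CLB2), its inhibitor Sic1 and the transcription factor subunit Swi4. These 10 ORFs were chosen by name out of 6033 nuclear ORFs, with no threshold on expression. RNA-Seq (mRNA) and ribosome footprint (FP) libraries of 12 cultures, 24 libraries in all, give 1 value per ORF in RPKM, which is reads divided by the length of the coding sequence and by the size of the library. The questions were how each gene followed chromosome copy number and how strains carrying a repaired CAK1 differed from those carrying a missense allele.

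Aneuploid strains are haploids of the S288C background that carry additional whole chromosomes, and "D" (disome) is followed by the number of each duplicated chromosome. D2 (NVY1) and D1/2 (NVY2) are MATa and have the WT CAK1 sequence. D1/2/8 (NVY3, MATa) and D13 (KLY196, MATalpha) carry the CAK1 missense allele L147F, and D13 also carries a missense allele of SEC24. D1/2/8/11 (KLY193, MATa), D1/8 (KLY194, MATa, derived from NVY3) and D13 (KLY195, MATalpha) are listed with a TRP1 cassette that restores the CAK1 sequence, and KLY195 also with a LEU2 cassette that restores SEC24. The reference is WT (RLY2626, MATa, euploid), auxotrophic for uracil, histidine, tryptophan and leucine. All cultures were log-phase cells grown in rich medium at 25 °C, and cycloheximide was added before harvest. D2, D1/2 and 1 WT culture formed run 1, and the other 5 aneuploid strains and a second WT culture formed run 2. Cultures were grown in duplicate, 2 each, for KLY193 (D1/2/8/11), KLY194 (D1/8) and KLY195, and every other strain had 1 culture per run, so its values carry no replicate error.

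A cyclin-dependent kinase acts only when bound to a cyclin, and Cdc28 also needs phosphate on a threonine of its activation loop (T-loop), which Cak1 adds as a separate single-subunit kinase. Swi4 is the DNA-binding subunit of the factor SBF, which switches on CLN1 and CLN2 late in G1. The Cln cyclins start the cycle, Clb5 and Clb6 drive DNA replication, Clb1 and Clb2 drive mitosis, and Sic1 holds Clb-bound Cdc28 inactive until it is destroyed. Levels of most of these mRNAs rise and fall within each cycle, so a log-phase culture gives their average over cells at all stages.

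The stretches around the CAK1 codon that the strains differ in, and around the T-loop threonine of CDC28 that Cak1 phosphorylates, are shown as coding strand from the R64 reference (the assembly also named sacCer3), with the codon in capitals. CAK1 lies on the minus strand and its stretch covers chrVI:78691-78753. CDC28 lies on the plus strand and its stretch covers chrII:560552-560614.
CAK1 codon 147: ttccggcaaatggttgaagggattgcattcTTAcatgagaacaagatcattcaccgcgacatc
CDC28 codon 169: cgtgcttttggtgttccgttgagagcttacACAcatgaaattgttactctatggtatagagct
The strain table of the study gives the mutant CAK1 codon as TTT, which turns leucine 147 into phenylalanine. Codon 147 stands 7 codons before the His-Arg-Asp triplet of codons 154 to 156, the catalytic loop found in protein kinases. Reads were mapped without mismatches, so a 28-base read over the changed base is lost from a mutant strain. That concerns 28 of the 1080 read positions in CAK1, or 2.59%. No 28-base stretch of any of the 10 genes occurs in the coding sequence of another gene.

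CAK1 (YFL029C) lies on chromosome VI (78055 to 79161), SWI4 (YER111C) on V (382595 to 385876) and SIC1 (YLR079W) on XII (286820 to 287674). CLN2 (YPL256C, 64977 to 66614), CLB2 (YPR119W, 771653 to 773128) and CLB5 (YPR120C, 773875 to 775182) lie on XVI, and CLB1 (YGR108W, 703636 to 705051) and CLB6 (YGR109C, 705359 to 706501) on VII. None of these chromosomes was duplicated in any strain. CDC28 (YBR160W) lies on II (560078 to 560974), duplicated in all strains but D1/8 and the D13 strains, and CLN1 (YMR199W) lies on XIII (662644 to 664284), duplicated in both D13 strains. Each gene is a single exon, and CLB1 and CLB6 stand 307 bases apart and CLB2 and CLB5 746 bases apart as neighbours.

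The FP libraries of run 1 held 1660710 to 5076124 reads and those of run 2 held 8479264 to 24937456. The mRNA libraries held 1532521 to 3477534 reads in run 1 and 22379091 to 39625960 in run 2. The 10 genes held 27 to 511 reads each in FP and 50 to 775 in mRNA in run 1, and 165 to 3440 in FP and 812 to 12891 in mRNA in run 2, so run 2 is the more precise. The pooled SD between replicate cultures over these genes, on the log2 scale, was 0.0756 in mRNA and 0.226 in FP. WT itself differed between runs by at least 1.5-fold in 2 of the 10 genes in mRNA (CLN2 and SWI4, lower in run 2) and in 3 in FP (CLB6, SIC1 and SWI4), against 19.4% and 20.2% of all genes. Each aneuploid library was therefore set only against the WT library of its own run.

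TRP1 marks the cassettes. Its mRNA was at 374.5 and 358.2 RPKM in D1/2/8/11 and at 303.1 and 300.7 RPKM in D13 (KLY195), against at most 0.7 RPKM in every other mRNA library. D1/8, listed with the cassette, therefore showed no TRP1 mRNA, and the cassette strains below are the 2 strains with TRP1 reads. The FP library labelled D13 (KLY195) replicate 1 held TRP1 at 0.8 RPKM, against 104.6 RPKM in replicate 2, and LEU2 footprints were at 320.6 RPKM in replicate 2 and at 28.6 to 110.7 RPKM in all other FP libraries. The SD over genes of the log2 ratio of the library labelled replicate 1 to D13 was 0.301, and to its own replicate 2 it was 0.56. Calls by limma in FP are therefore given with and without it. Mating-type genes matched the labels of every culture. MATa genes were at 59.0 to 82.2 RPKM in the mRNA of the D13 cultures and at 494 to 2681 RPKM in the others, so D13 strains differ from WT in mating type as well as in chromosome XIII, and these cannot be told apart.

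CAK1 mRNA was higher in both strains with TRP1 reads and near WT in every other strain of run 2. It was at 186.5 and 182.7 RPKM in D1/2/8/11 and at 276.1 and 275.7 RPKM in D13 (KLY195). The other run 2 aneuploids had 37.5 RPKM (D1/2/8), 33.8 RPKM (D13) and 45.3 and 37.6 RPKM (D1/8), against 37.5 RPKM in WT. In run 1 the values were 48.2 RPKM in D2 and 50.9 RPKM in D1/2, against 36.6 RPKM in WT. The 4 cassette cultures thus lay above all other cultures without overlap, while the missense strains D1/2/8 and D13 and the listed cassette strain D1/8 did not stand apart from WT. The log2 change to WT was 2.32 and 2.29 in D1/2/8/11 and 2.88 in each D13 (KLY195) culture, and it lay between -0.15 and 0.45 in all others. In D1/2/8/11, 10 and 11 genes out of 5611 and 5582 had a larger mRNA change, and in D13 (KLY195) 6 and 7 of 5602 and 5632.

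CAK1 footprints did not show this difference. FP values were 29.7 and 20.9 RPKM in D1/2/8/11 and 21.7 and 24.7 RPKM in D13 (KLY195), where 21.7 RPKM is from the library labelled replicate 1. They were 24.2 RPKM in D1/2/8, 21.7 RPKM in D13 and 24.5 and 24.8 RPKM in D1/8, against 22.1 RPKM in WT. All run 2 cultures therefore overlapped in FP, and the higher mRNA was not matched by more footprints. In run 1 they were at 18.3 RPKM in D2 and 25.4 RPKM in D1/2, against 13.7 RPKM in WT, the last from 30 reads.

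Ribosome density is the FP level relative to mRNA in the same culture. For CAK1 the ratio of FP RPKM to mRNA RPKM was 0.16 and 0.11 in D1/2/8/11 and 0.08 and 0.09 in D13 (KLY195). It was 0.65 in D1/2/8, 0.64 in D13 and 0.54 and 0.66 in D1/8, against 0.59 in WT of run 2. In log2 terms the density change to WT was -1.89 and -2.37 in D1/2/8/11 and -2.91 and -2.72 in D13 (KLY195). It lay between -0.13 and 0.37 in the other aneuploid cultures. The -2.91 was D13 (KLY195) replicate 1, whose FP library stands apart, so replicate 2 is the safer value. Few genes moved further down, 98 and 25 in the D1/2/8/11 cultures and 3 and 15 in the D13 (KLY195) cultures, of 5052 to 5157 genes.

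Across run 2, limma (a linear model fitted to log2(RPKM + 0.5) of all genes) set the mean of the 2 cassette strains against the mean of D1/2/8, D1/8 and D13. CAK1 mRNA was 5.92-fold higher (log2 2.57, SE 0.06, adjusted p = 1.4e-09). In FP its difference was 0.11 on the log2 scale, with a 95% interval of -0.23 to 0.45 (adjusted p = 0.60), so a rise in footprints of the size seen in mRNA lies far outside that interval. The median FP difference over all genes was also 0.11. Leaving out 1 culture at a time gave CAK1 FP differences of -0.03 to 0.25. CAK1 density was lower by -2.45 (SE 0.16, 95% interval -2.85 to -2.06, adjusted p = 0.019), and CAK1 was the only gene that passed, 0.0199% of 5035 tested. At an unadjusted p under 0.05, 1198 genes passed. Without the FP library labelled D13 (KLY195) replicate 1, 655 genes (13%) passed in density, and CAK1 (-2.41, adjusted p = 0.039) was the only one of the 10 genes among them. Leaving out either culture of D1/2/8/11 or of D1/8 left CAK1 density at -2.32 to -2.58 and its adjusted p above 0.05, at up to 0.156.

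With strains as the unit, the exact two-sided permutation test of 2 cassette strains against 3 others gave p = 0.1 for CAK1 mRNA (mean log2 change 2.59 against -0.00) and p = 0.1 for density (difference -2.56). This is the smallest p that 10 splits allow, so the design cannot reach 0.05 over strains. The strains are also related, D13 (KLY195) to D13 and D1/8 to D1/2/8, so they are not independent units. For FP the difference was 0.04 (exact p = 0.8). With D1/8 counted among the cassette strains, as the strain table lists it, the mRNA difference fell to 1.85 (exact p = 0.2). Counted gene by gene over strains instead of cultures, limma gave CAK1 mRNA the same 2.57 with an adjusted p of 0.19.

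Genes beside CAK1 on chromosome VI did not rise with it. The log2 change in mRNA of CAF16 was -0.58 and -0.57 in D1/2/8/11 and -0.31 and -0.38 in D13 (KLY195). That of AGX1 lay between -0.32 and 0.05 in these 4 cultures. The files give 1 value per ORF, and where within CAK1 the reads fell was not analysed here.

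CDC28, the cyclin-dependent kinase itself, followed the copy number of chromosome II in both fractions. In run 2 its mRNA was at 239.7 RPKM in D1/2/8 and at 250.9 and 248.6 RPKM in D1/2/8/11. Strains without the duplication had 97.8 RPKM (D13), 138.0 and 138.1 RPKM (D13 (KLY195)) and 121.2 and 115.0 RPKM (D1/8), against 96.2 RPKM in WT. In run 1 it was at 154.6 RPKM in D2 and 183.9 RPKM in D1/2, against 80.4 RPKM in WT. Every culture with chromosome II duplicated lay above every culture without it in its run.

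CDC28 footprints divided the cultures in the same way. FP values were 191.1 RPKM in D1/2/8 and 210.2 and 238.2 RPKM in D1/2/8/11. The other cultures of run 2 had 84.3 RPKM (D13), 81.3 and 123.8 RPKM (D13 (KLY195)) and 89.4 and 98.6 RPKM (D1/8), against 81.3 RPKM in WT. In run 1, D2 had 113.1 RPKM and D1/2 had 98.8 RPKM, against 59.7 RPKM in WT. The separation was complete within each run.

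The log2 change of CDC28 to WT averaged 1.20 in mRNA over the 4 strains with chromosome II duplicated and 0.28 over the 3 without, a difference of 0.92. The two-sided exact permutation test over strains gave p = 0.029, the smallest that 35 splits allow, and 0.129 after adjustment over the 9 such tests of CDC28, CLN1 and CAK1. In FP the means were 1.05 and 0.19, a difference of 0.86 (exact p = 0.057, adjusted p = 0.129). Within run 2 the differences were 1.07 in mRNA and 1.16 in FP, each with exact p = 0.1, again the smallest possible. In density the difference was -0.06 (exact p = 0.89). Related strains counted as separate units in these tests.

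Against its own chromosome, CDC28 lay at or above the middle in mRNA. Its log2 change was 0.92 in D2, where the median of chromosome II genes was 0.88, and 1.17 in D1/2, where it was 0.92. It was 1.32 in D1/2/8 and 1.38 in D1/2/8/11, beside chromosome medians of 0.89 and 0.95, with 83.6% and 80.2% of the chromosome's genes lower. In FP it lay below the chromosome median in D2 (0.84, beside 0.87) and D1/2 (0.66, beside 0.89) and above it in D1/2/8 (1.23, beside 0.85) and D1/2/8/11 (1.46, beside 0.96). CDC28 was also above WT where chromosome II was not duplicated, by 0.52 in each D13 (KLY195) culture and by 0.33 and 0.26 in the D1/8 cultures, but by 0.02 in D13.

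**Figure D1:**
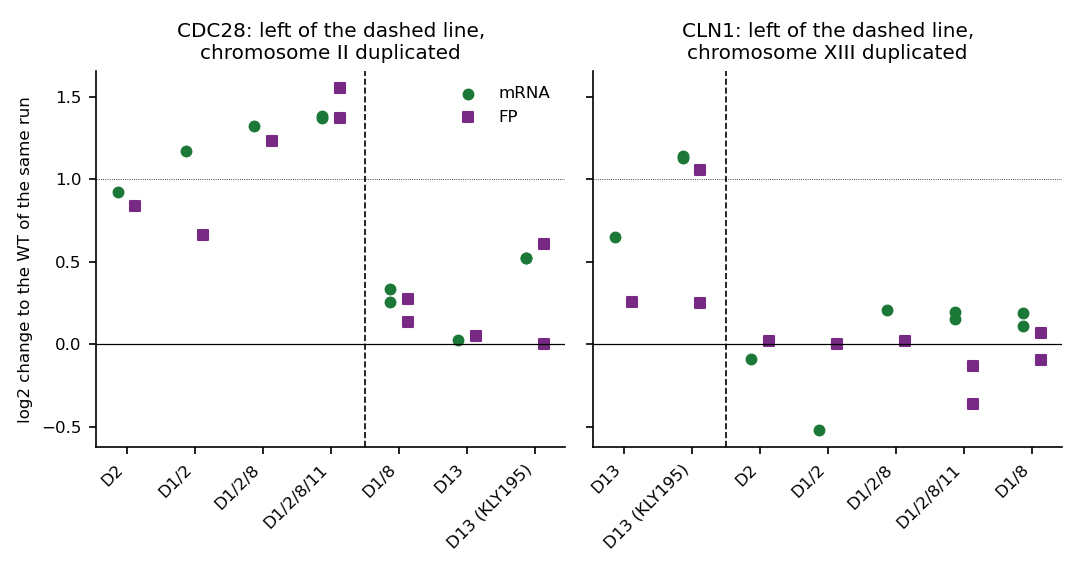
Log2 change to the WT of the same run for CDC28 and CLN1 in mRNA and FP, 1 point per culture, by strain. CDC28 mRNA lies at 0.92 to 1.38 where chromosome II is duplicated and at 0.02 to 0.52 elsewhere, and CLN1 mRNA at 0.65 to 1.14 where chromosome XIII is duplicated and at -0.52 to 0.21 elsewhere.

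SWI4 mRNA had the narrowest range of changes of the 10 genes, -0.15 to 0.44. In run 2 it was at 21.5 RPKM in D1/2/8, 22.7 and 22.9 RPKM in D1/2/8/11, 19.9 RPKM in D13, 19.7 and 22.7 RPKM in D13 (KLY195) and 20.7 and 25.2 RPKM in D1/8, against 18.5 RPKM in WT. All aneuploid cultures lay above the single WT culture, by 0.09 to 0.44 on the log2 scale, and limma over the 5 run 2 aneuploid strains gave 0.24 (adjusted p = 0.058). In FP of run 2 it lay between 11.1 RPKM (D13) and 17.0 RPKM (D1/8 replicate 2), all below the 17.2 RPKM of WT, with changes of -0.64 to -0.02. Run 1 went the other way, with SWI4 footprints at 14.9 RPKM in D2 and 13.1 RPKM in D1/2, against 8.9 RPKM in WT. Those changes were 0.66 and 0.49.

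CLN1, a G1 cyclin that SBF transcribes, was higher in both D13 strains. Its mRNA was at 73.8 RPKM in D13 and 103.5 and 102.8 RPKM in D13 (KLY195), and at 50.8 to 54.3 RPKM in the other aneuploid cultures of run 2, against 47.0 RPKM in WT. In run 1 it was at 75.0 RPKM in D2 and 55.5 RPKM in D1/2, against 78.5 RPKM in WT. The D13 cultures lay above all others of run 2. The mean log2 change was 0.89 over the D13 strains and -0.02 over the 5 other strains, a difference of 0.91, with exact p = 0.048, the smallest of 21 splits, and 0.129 after adjustment. Both D13 strains share a karyotype and mating type and differ by the repairs, so they are not independent units in this test. Within run 2 the difference was 0.72 (exact p = 0.1).

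In FP, CLN1 was at 55.0 RPKM in D13, at 54.6 and 95.4 RPKM in the libraries labelled D13 (KLY195) replicates 1 and 2, and at 35.7 to 48.3 RPKM in the other aneuploids of run 2, against 46.0 RPKM in WT. The difference between the D13 strains and the others was 0.50 (exact p = 0.048, adjusted p = 0.129). It was 0.70 without the library labelled replicate 1 and 0.30 without replicate 2. The library labelled replicate 1 stood at the level of D13, and replicate 2 alone was near a doubling. Relative to chromosome XIII, CLN1 mRNA in D13 changed by 0.65, beside a chromosome median of 0.96, and in D13 (KLY195) by 1.13, beside 1.01.

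CLN2, its paralogue on the unduplicated chromosome XVI, went the other way in D13 strains. CLN2 mRNA was at 19.5 RPKM in D13 and 28.9 and 27.9 RPKM in D13 (KLY195), the lowest values of run 2. It was at 45.3 RPKM in D1/2/8, 55.0 and 48.9 RPKM in D1/2/8/11 and 89.8 and 92.9 RPKM in D1/8, against 64.8 RPKM in WT. These cultures spread widely to both sides of WT, with log2 changes of -1.73 in D13, -1.16 and -1.21 in D13 (KLY195), -0.51 in D1/2/8 and 0.47 and 0.52 in D1/8. Run 1 values were 109.3 RPKM in D2 and 104.7 RPKM in D1/2, against 123.9 RPKM in WT.

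CLN2 footprints were also below WT in the D13 strains. They were at 37.0 RPKM in D13 and at 35.2 and 59.4 RPKM in D13 (KLY195), against 75.7 RPKM in WT of run 2. They were at 82.4 RPKM in D1/2/8 and at 80.1 and 81.3 RPKM in D1/2/8/11, at or above WT although the mRNA lay below it. CLN2 density was above WT in D1/2/8 (0.64), D1/2/8/11 (0.32 and 0.51) and D13 (0.70), and below it in D1/8 (-0.21 and -0.44). In D13 (KLY195) it was 0.06 in replicate 1, whose FP library stands apart, and 0.87 in replicate 2. The limma values that follow were centred on each library's own median, so they are shifted against these per-culture changes. Over all genes their median in density was 0.08 in the full fit. Over the run 2 aneuploids limma gave CLN2 density 0.53 (adjusted p = 0.23), and 0.61 (adjusted p = 0.022) without the library labelled D13 (KLY195) replicate 1.

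The S-phase cyclins CLB5 and CLB6 were higher in mRNA in D13 (KLY195), D1/2/8/11 and D1/2/8. CLB5 was at 69.1 RPKM in D1/2/8, 68.7 and 67.6 RPKM in D1/2/8/11, 68.9 and 70.7 RPKM in D13 (KLY195), 53.7 RPKM in D13 and 48.2 RPKM in each D1/8 culture, against 43.1 RPKM in WT. CLB6 was at 39.9 RPKM in D1/2/8, 39.3 and 43.3 RPKM in D1/2/8/11, 42.7 and 44.2 RPKM in D13 (KLY195), 26.9 RPKM in D13 and 32.0 and 34.7 RPKM in D1/8, against 25.9 RPKM in WT. In both genes the cultures of these 3 strains lay together at changes of 0.60 to 0.77, above D13 and D1/8.

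Footprints of both S-phase cyclins did not follow. CLB5 FP changes lay between -0.42 and 0.36 and CLB6 FP changes between -0.81 and 0.02 in run 2. Density was below WT in all 8 run 2 aneuploid cultures for both genes, by -0.30 to -0.87 in CLB5 and -0.52 to -1.44 in CLB6. The -1.44 was D13 (KLY195) replicate 1, whose FP library stands apart, and the next lowest CLB6 value was -0.99, in replicate 2. In run 1, density in D2 and D1/2 was 0.19 and -0.14 for CLB6 and -0.64 and -0.49 for CLB5. By limma the run 2 density differences were -0.41 for CLB5 (adjusted p = 0.12) and -0.65 for CLB6 (adjusted p = 0.074). Without the library labelled D13 (KLY195) replicate 1, CLB6 density was -0.61 (adjusted p = 0.028). A single WT culture stands behind each of these differences. As for CLN2, the limma values are shifted against the per-culture changes, with a median of 0.08 over all genes in the full fit.

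Of the mitotic cyclins, CLB1 mRNA was highest in D1/2/8 (146.9 RPKM) and D1/2/8/11 (126.2 and 137.3 RPKM), and lower in D13 (KLY195) (112.7 and 115.0 RPKM), D13 (97.6 RPKM) and D1/8 (88.0 and 89.6 RPKM), against 97.6 RPKM in WT. CLB2 mRNA was below WT in D13 (38.3 RPKM), D13 (KLY195) (45.4 and 44.1 RPKM), D1/2/8/11 (58.8 and 60.3 RPKM) and D1/2/8 (62.5 RPKM), and near it in D1/8 (70.4 and 80.5 RPKM), against 74.8 RPKM in WT. The paralogues therefore differed in sign in every culture of 3 of the strains of run 2, D13 (KLY195), D1/2/8/11 and D1/2/8. In FP the range was narrow for both, 26.7 to 40.4 RPKM for CLB1, against 33.4 RPKM in WT, and 31.1 to 49.8 RPKM for CLB2, against 43.2 RPKM in WT. The run 1 strains had CLB1 at 99.3 RPKM (D2) and 131.7 RPKM (D1/2), against 150.2 RPKM in WT, and CLB2 at 108.5 and 116.2 RPKM, against 123.4 RPKM in WT.

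SIC1 mRNA, for the inhibitor of the Clb kinases, was above WT in every run 2 aneuploid culture. It was at 183.7 RPKM in D1/2/8, 205.4 and 202.0 RPKM in D1/2/8/11, 121.2 RPKM in D13, 151.9 and 149.0 RPKM in D13 (KLY195) and 148.3 and 139.4 RPKM in D1/8, against 108.8 RPKM in WT. D1/2/8/11 was furthest from WT, by 0.92 and 0.90 on the log2 scale, and D13 nearest, by 0.16. In FP the run 2 changes were smaller, -0.24 to 0.43. SIC1 density was below WT in all 10 aneuploid cultures, by -0.17 (D13) to -1.12 (D1/2). Each value rests on the single WT culture of its run, and WT SIC1 footprints differed by -0.85 on the log2 scale between runs. SIC1 density did not pass limma in run 2, and with 1 culture left out at a time it was at -0.30 to -0.22. In run 1, SIC1 footprints were at 46.7 RPKM in D2 and 44.6 RPKM in D1/2, against 88.6 RPKM in WT, while the mRNA was at 153.1 and 181.3 RPKM, against 171.5 RPKM in WT.

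**Figure D2:**
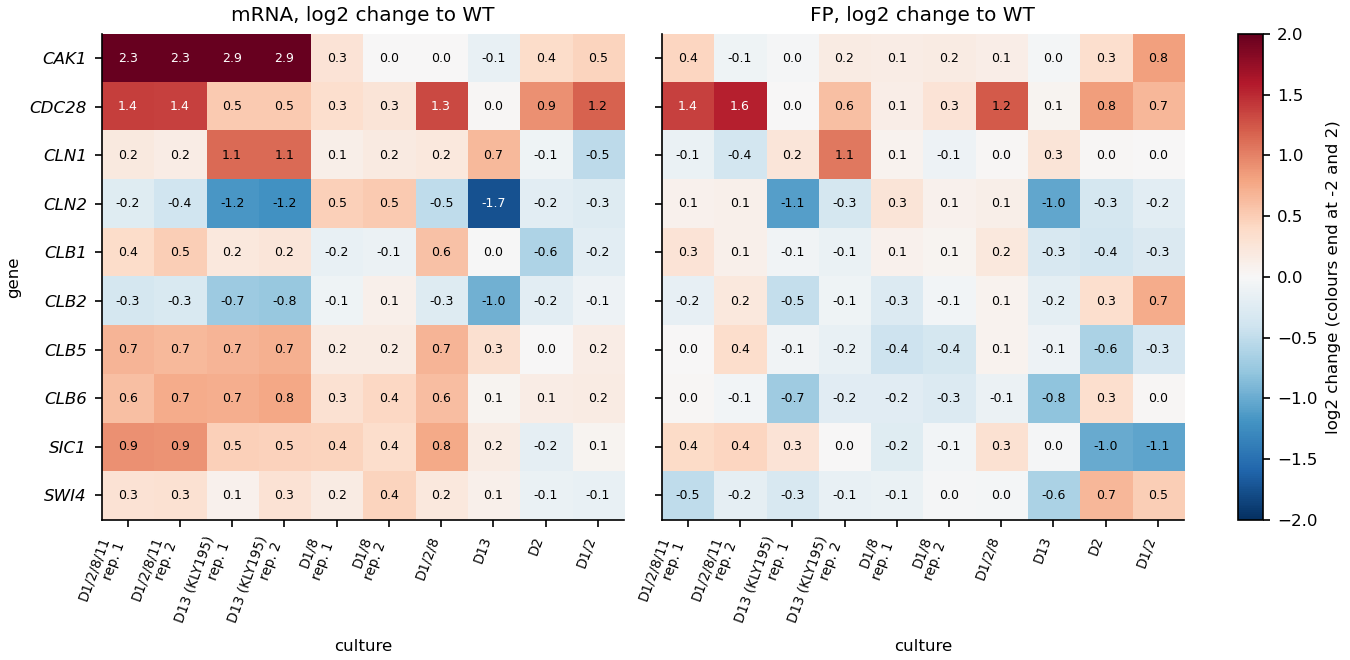
Log2 change to the WT of the same run for the 10 genes (rows) in each aneuploid culture (columns), for mRNA and FP, with colours ending at a change of 2 in either direction. CAK1 mRNA in the 4 cassette cultures and CDC28 in the disome II cultures stand out, and CLN2 is lowest in D13.

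Counted by strain, up to 6 of the 10 genes changed at least 1.5-fold in mRNA in every culture of a strain. There were 2 in D2 (CDC28 higher, CLB1 lower; 23.2% of all genes passed), 1 in D1/2 (CDC28; 23.9%), 5 in D1/2/8 (CDC28, CLB1, CLB5, CLB6 and SIC1; 35.5%) and 5 in D1/2/8/11 (CAK1, CDC28, CLB5, CLB6 and SIC1; 34%). D13 had 3 (CLN1 higher, CLN2 and CLB2 lower; 34.6%), D13 (KLY195) had 6 (CAK1, CLN1, CLB5 and CLB6 higher, CLN2 and CLB2 lower; 30.9%) and D1/8 none (12.5%). Whether these shares of 10 genes differ from the backgrounds was not tested, so they are no result about the set. In FP, CDC28 was the only gene past the fold in D1/2/8 (39.1%) and in D1/2/8/11 (40.9%), and none passed in D1/8 (13.9%) or D13 (KLY195) (28.2%). D13 had 3 (38.4%), with CLN2, CLB6 and SWI4 all lower. D2 had 4 (27.5%), with CDC28 and SWI4 higher and CLB5 and SIC1 lower. D1/2 had 4 (28.4%), with CAK1, CDC28 and CLB2 higher and SIC1 lower.

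The 5 run 2 aneuploid strains were also set against WT as a mean. Over all genes the median difference in this fit was 0.10 in mRNA, 0.24 in FP and 0.08 in density. In mRNA 9 of the 10 genes passed limma at an adjusted p under 0.05, 7 of them higher, where 69.5% of 5470 genes passed in either direction and 42.1% were higher. CLN2 (-0.62) and CLB2 (-0.43) were lower, and CAK1 (1.05), CDC28 (0.73), SIC1 (0.56), CLB5 (0.52), CLB6 (0.50), CLN1 (0.48) and CLB1 (0.24) were higher. These means cover unlike strains. The mean change of CAK1 to WT was 2.30 and 2.88 in the cassette strains and -0.15 to 0.14 in the rest. That of CDC28 was 1.32 and 1.38 with chromosome II duplicated and 0.02 to 0.52 without. That of CLN1 was 0.65 and 1.13 in the D13 strains and 0.15 to 0.21 in the others of run 2. Without the D1/2/8 culture CLB1 was at 0.14 and no longer passed (adjusted p = 0.059), and without the D13 culture CLN2 was at -0.35 and still passed. In FP only CDC28 passed (0.82, adjusted p = 0.025), where 41.9% of 5036 genes did, and it no longer passed (adjusted p of up to 0.061) when a culture of D1/2/8/11, D1/8 or D1/2/8 was left out. Without the library labelled D13 (KLY195) replicate 1, 59.9% of genes passed in FP, with CDC28 (0.88) and SIC1 (0.28) among them. SIC1 at 0.28 lay near the FP median of 0.24 over all genes in the full fit, where 27.7% of genes were higher. Its mean FP changes to WT by strain ran from -0.15 (D1/8) to 0.41 (D1/2/8/11). In density none of the 10 passed, where 14.5% of 5035 genes passed in either direction and 7.77% were higher. Without that library 36.3% passed in density, with CLN2 (0.61), CLB2 (0.54) and CLB6 (-0.61) among them. WT was 1 culture in this fit and was assumed to vary like the replicated strains, so these p-values measure the spread between cultures of other strains.

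Each repaired strain was then compared with the missense strain nearest to it in karyotype. D13 (KLY195) against D13 holds the karyotype fixed and differs in CAK1, in SEC24 and in the TRP1 and LEU2 cassettes that came with their repair. Here CAK1 mRNA was higher by 3.04 on the log2 scale (SE 0.10, adjusted p = 6.9e-09), and 7 further genes were higher: CLB6 (0.71), CLN2 (0.56), CDC28 (0.52), CLN1 (0.51), CLB5 (0.40), SIC1 (0.34) and CLB1 (0.25). That made 8 of 10, all higher, where limma called 27.2% of all genes in either direction and 15.8% higher. CLB2 differed by 0.25 (adjusted p = 0.051) and SWI4 by 0.11 (95% interval -0.15 to 0.37, adjusted p = 0.51). The CLB1 call was lost (adjusted p of up to 0.082) without either D13 (KLY195) culture. In FP none of the 10 genes and 0 of 5036 genes passed (198 at an unadjusted p under 0.05). Without the library labelled replicate 1, 4.15% passed, among them CLN2 (0.70, adjusted p = 0.045).

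D1/2/8/11 and D1/2/8 differ in CAK1, in its TRP1 cassette and in chromosome XI. In D1/2/8/11 against D1/2/8, CAK1 was the only one of the 10 genes past the threshold in mRNA (2.24, SE 0.10, adjusted p = 2.6e-07), where 15.8% of all genes passed. The 9 others differed by -0.20 (CLB1) to 0.15 (CLN2). For CDC28 the difference was 0.01 (95% interval -0.12 to 0.15), for CLB6 0.00 (-0.18 to 0.19) and for CLB5 -0.06 (-0.20 to 0.08), so a difference as large as that between the D13 strains lies outside these intervals. In FP none of the 10 genes passed, where 0.516% of genes did, nor did any without the library labelled D13 (KLY195) replicate 1 (11.9%). D13 and D1/2/8 were 1 culture each, so what was particular to that culture and what belongs to the strain cannot be told apart. The difference between the pairs was tested directly in the same fit, and 8 of the 10 genes passed in mRNA, all larger in the D13 pair, where 27.6% of genes passed in either direction and 12.5% in that one. In FP 0 genes passed, and without the library labelled D13 (KLY195) replicate 1, CLN1 and CLN2 did (10.1% of genes).

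**Figure D3:**
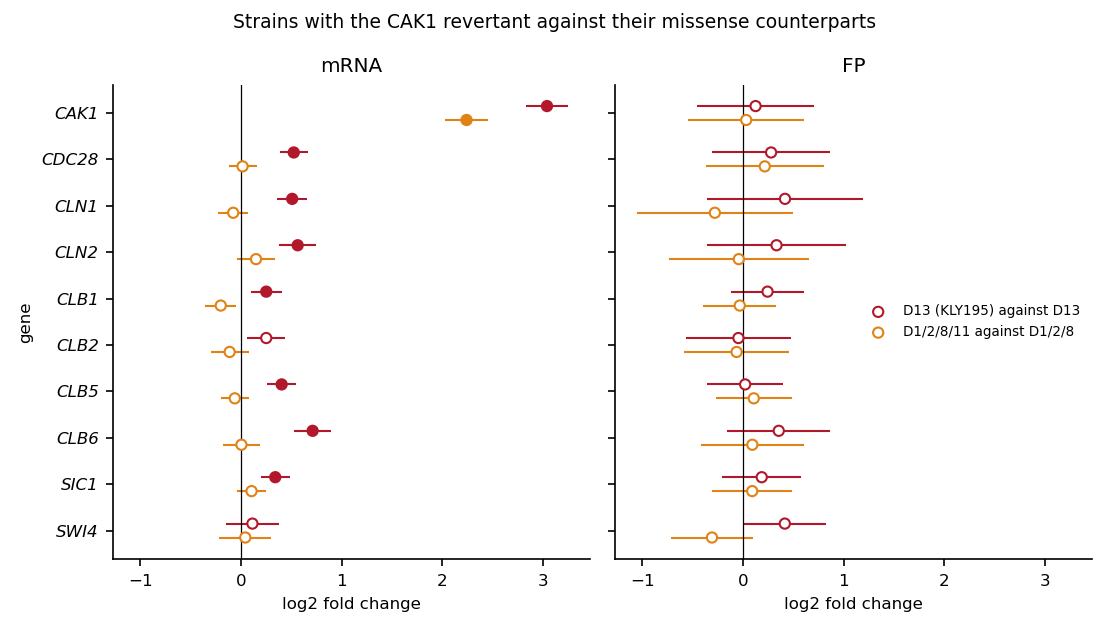
Log2 difference in mRNA and FP between each strain with cassette reads and its missense counterpart for the 10 genes, from limma, with 95% intervals as bars and filled points for an adjusted p under 0.05. In mRNA 8 genes are filled for D13 (KLY195) against D13 and only CAK1 for D1/2/8/11 against D1/2/8, and no point is filled in FP.

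Taken over both cassette strains against D1/2/8, D1/8 and D13, 9 of the 10 genes passed in mRNA, 7 of them higher, where 57.4% of genes passed in either direction and 31.4% were higher. Apart from CAK1 the differences were 0.39 (CDC28), 0.35 (CLB6), 0.30 (CLN1), 0.28 (CLB5), 0.24 (SIC1), 0.16 (CLB1), -0.14 (CLB2) and -0.18 (CLN2), all below 1.5-fold. Several rested on 1 of the single cultures. Without D13, CLB1 (0.07, adjusted p = 0.19) and SIC1 (0.08, adjusted p = 0.13) no longer passed, CDC28 was at 0.11, CLB6 at 0.18, CLB2 at -0.44 and CLN2 at -0.77. Without D1/2/8, CLB2 (-0.05, adjusted p = 0.41) no longer passed, and CDC28 was at 0.79, CLB5 at 0.44, SIC1 at 0.41 and CLB1 at 0.40. CLB2 also failed to pass without either D1/2/8/11 culture or without D13 (KLY195) replicate 2. With D1/8 placed among the cassette strains CLN2 (0.77), CLB2 (0.25) and CLB1 (-0.12) turned in sign. With the 8 aneuploid libraries as single units only 3 genes passed, TRP1, CAK1 and YDR008C, an ORF that overlaps TRP1. TRP1 reads defined the cassette strains, so the calls of TRP1 and YDR008C were fixed in advance and are no result. In FP none of the 10 passed, where 21% of genes did and the median difference over all genes was 0.11. Without the library labelled D13 (KLY195) replicate 1 the share was 44.5%, and CDC28 (0.61), CLN1 (0.38), CLB6 (0.34) and SIC1 (0.23) passed. The cassette strains are not matched to the others in karyotype or mating type, which cannot be told apart from the cassette in this comparison.

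Other genes of the cell cycle control network, 70 in 9 lists, were compared in the same fits. In D13 (KLY195) against D13, 28 of the 68 tested were higher in mRNA and 1 was lower, with a median difference of 0.20, beside 0.03 over all genes, of which 15.8% were higher. Of the G1/S targets, 8 of 9 were higher (median 0.52), led by POL30 (0.68), the sliding clamp of DNA replication, and PCL1 (0.67), a cyclin of the kinase Pho85. Of the other CDK inhibitors and the genes of inhibitory tyrosine phosphorylation, 5 of 6 were higher, with FAR1 (0.40), the pheromone-induced Cln-Cdc28 inhibitor, and SWE1 (0.37), the kinase that phosphorylates Cdc28 on tyrosine. The single lower gene was CDC15 (-0.41), a kinase of the mitotic exit network.

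In D1/2/8/11 against D1/2/8, 10 of the 68 genes were higher and 1 lower in mRNA, near the share over all genes, of which 10% were higher and 15.8% passed in either direction. HSL1 (1.06), a kinase that acts against Swe1, ASH1 (1.25), a repressor of mating-type switching, PIR1 (0.86), a cell wall protein, CDC16 (0.84), a subunit of the anaphase-promoting complex, and CTK1 (0.75) lie on chromosome XI, which only D1/2/8/11 carries in duplicate. The lower gene was FAR1 (-0.37). Of the 9 G1/S targets only PCL1 (0.47) was higher. In FP none of the 67 tested passed in either comparison, where 0.516% of all genes did in D1/2/8/11 against D1/2/8 and 0% in D13 (KLY195) against D13. Without the library labelled D13 (KLY195) replicate 1, HSL1, ASH1, CDC16, CTK1 and SKP1 were higher in FP in D1/2/8/11 against D1/2/8, 5 of 67 where 11.9% of genes passed, and again none passed in D13 (KLY195) against D13.

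Against WT, 22 genes of the 9 lists were higher and 27 lower in mRNA over the run 2 aneuploids, where 69.5% of all genes passed, so no common direction was seen.

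Among themselves, over the 10 aneuploid mRNA libraries, the changes of CLN2 and CLB2 ran together (Pearson r = 0.96), as did those of CLB1 and CLB5 (0.92), CLB1 and SIC1 (0.91) and CLB5 and CLB6 (0.87). The libraries of a run share 1 WT library and replicate cultures share a strain, so these are descriptions over few independent points. The genes whose mRNA pattern was most like that of CAK1, among 4922 genes, were BUD6 (r = 0.94), SPH1 (0.91) and MRS1 (0.85). BUD6 changed only by 0.02 to 0.20 and MRS1 by -0.36 to -0.04, so none of the 3 approached the range of CAK1. The genes most like CLB2 were EHD3 (0.98), TAL1 (0.98) and TOS7 (0.97).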

How the data were processed

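Ribosome footprints and total mRNA of 12 yeast cultures were prepared with a ribosome profiling kit, and the 24 tables hold RPKM per ORF as deposited. The authors used Cutadapt for trimming and Bowtie, allowing no mismatch, for mapping to sacCer3 mRNAs, and counted reads in coding sequences. They scaled aneuploid libraries to the WT of their run by the median ratio of genes on nonduplicated chromosomes. Tool versions are not given in the sources used here. Each table has 1 measurement column, and no column (0) was left without a sample. An ORF under 4 reads is at 0 or blank. Multiplied by coding length, the RPKM step by whole reads from 4 reads up, which gave approximate depth only. Depth covers counting error only, since PCR copies are not independent molecules.

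The log2 change to the same-run WT was computed for genes above 0 in both libraries. It was centred on the median over genes on the chromosomes not duplicated in that strain. Subtracting the mRNA change from the FP change gave the change in ribosome density. Run 2 (9 libraries per fraction) was fitted with limma 3.58.1 in R 4.3.3 (lmFit, eBayes with trend), with 1 group per strain. Genes needed a mean RPKM of at least 1. Each library was centred on its median over such genes on chromosomes duplicated in no strain (4038 in mRNA, 3711 in FP and 3710 in density). This centring differs from that of the log2 changes to WT, so limma values can differ from their means by a shift common to all genes. Adjustment was by Benjamini-Hochberg over all genes tested (threshold 0.05), and the values fitted were log2(RPKM + 0.5). Fold changes are on that scale and understate changes of low genes. The spread came from the 3 strains grown as 2 cultures, single cultures were assumed to vary alike, and p-values measure the spread between cultures. Exact permutation tests over strains were two-sided and adjusted over 9 tests. They took each strain as a unit although some strains are related (KLY195 to KLY196, KLY194 to NVY3), so their p-values assume more independence than the strains have. The fit was tested on simulated data. The comparison of the repaired strains' changes with each other, D1/8 among the cassette strains in the permutation test, and the list counts without 1 FP library, were chosen after seeing the data.

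The text names all 10 genes, TRP1, LEU2 and mating-type genes as label checks, at most the 2 genes of largest change per list and comparison among those past the threshold (genes named beyond that were chosen after their values were seen), and the 3 genes most like CAK1 and the 3 most like CLB2 with a mean mRNA RPKM of at least 10. The genes and lists were chosen with earlier results of these data known. Alternatives were the pseudocount, the filter, centring, a replicate block, leaving out each culture, and libraries or strains as units. Sequences and positions are from RefSeq R64, read with Python 3.11.15. The result of 1 of the 9 lists is not reported here.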

Additional observations from a re-analysis of the deposited data

Results flagged for a closer look

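The change from missense to repaired CAK1 differed between the D13 pair and the D1/2/8 pair in 8 of the 10 genes in mRNA, by an interaction term in the same limma fit that was added after seeing the data, and 27.6% of all genes passed it. The change of D13 (KLY195) over D13 exceeded the change of D1/2/8/11 over D1/2/8 by 0.80 on the log2 scale for CAK1 (adjusted p = 0.0016), 0.71 for CLB6 (0.0016), 0.59 for CLN1 (0.0013) and 0.51 for CDC28 (0.0020). It exceeded it by 0.47 for CLB5, 0.45 for CLB1, 0.41 for CLN2 and 0.36 for CLB2, of which CLN2 (adjusted p = 0.025) and CLB2 (0.046) lost the call when 1 of the replicate cultures was left out, CLN2 at an adjusted p of up to 0.076 and CLB2 at up to 0.12. In FP 0 genes passed (707 at an unadjusted p under 0.05), and without the library labelled D13 (KLY195) replicate 1, 10.1% did, with CLN1 (1.09) and CLN2 (0.74) among them. The pairs also differ in SEC24 and its LEU2 cassette, in chromosome XI and in mating type. Each missense strain was 1 culture, so the share of CAK1 in these differences cannot be told apart.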

How the results depend on the processing

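The cassette comparison in FP gave 1057 genes, but 0 with D1/8 among the cassette strains, 0 with libraries as units and 0 with strains as units. In mRNA (3140) libraries as units gave 3 and strains as units 1 (TRP1, whose reads defined the cassette strains). In density (1) the replicate block, D1/8 among the cassette strains and strains as units each gave 0. D1/2/8/11 against D1/2/8 in FP (26) gave 2 with no filter on low values, 40 at a mean RPKM of at least 10, 2 without centring and 1 with the replicate block. Deviations of same-numbered cultures correlated at -0.06 to 0.22, highest between D1/2/8/11 and D13 (KLY195) in mRNA. Whether same-numbered cultures share a batch was not tested. Leaving out 1 culture at a time gave ranges of 0 to 2239 (cassette, FP), 0 to 772 (cassette, density), 0 to 601 (D1/2/8/11 against D1/2/8, FP), 881 to 1643 (D13 (KLY195) against D13, mRNA), 0 to 209 (the same, FP), 1180 to 3016 (against WT, FP) and 0 to 1825 (against WT, density). The CDC28 difference by chromosome II was 0.90 in FP without centring (exact p = 0.029), and in mRNA 0.71 against the mean of both WT (exact p = 0.086) and 1.07 within run 2. CLN1 within run 2 gave 0.72 in mRNA and 0.53 in FP. In density CDC28 turned to 0.075 against the mean of both WT and 0.091 within run 2, and CLN1 to 0.084 against the mean of both WT. With 1 culture left out CAK1 FP ranged from -0.0915 to 0.16, CDC28 FP from 0.76 to 0.96 and CDC28 density from -0.16 to 0.044. With D1/8 among the cassette strains CLN2 (0.77), CLB1 (-0.12) and CLB2 (0.25) reversed in mRNA. Of 1680 values of the 10 genes in limma fits under alternatives, 1594 kept their side of the threshold, 51 lost it, 32 gained it and 3 reversed. The cause of these changes was not tested. FP precision and 1 culture each of WT, D13 and D1/2/8 set the limits.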
